A study of Mus musculus with 6 samples.

Results

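Vitamin D, Klotho and phosphate handling in the injured kidney is described here through 10 genes, out of 21367 in the deposited table, taken by their symbols. They are *Cyp2r1*, *Cyp27b1* and *Cyp24a1* (vitamin D hydroxylases), *Vdr* (the vitamin D receptor), *Kl* and *Fgfr1* (the receptor complex for FGF23), *Pth1r* (the parathyroid hormone receptor), and *Slc34a1*, *Slc34a3* and *Slc20a2* (phosphate transporters). Each symbol matched 1 gene, and all 10 passed the filter on low counts. The genes were chosen by the measured fold changes and adjusted p-values of *Ptpn6*+/mev against wild-type mice, together with their roles in the pathway, so these values are given below as descriptions and support nothing further.

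The study compared left kidneys of 3 *Ptpn6*+/mev mice and 3 wild-type littermates, all 7 weeks old and on a C57BL/6 background, with 1 mRNA library per mouse. In every mouse the right kidney was taken out, the left renal pedicle was occluded for 34 min, and tissue was collected 24 h later, so both groups carry ischemia-reperfusion injury (IRI) and no uninjured kidney was analysed here. *Ptpn6*+/mev mice carry the viable motheaten allele, a splice-site mutation of the gene for the phosphatase SHP-1, in the heterozygous state in every cell, and the labels also call this genotype SHP1 knockdown. A gene-level count includes misspliced transcripts, so the *Ptpn6* level (13.4 ± 1.42 FPKM in *Ptpn6*+/mev and 14.6 ± 3.38 in wild-type mice, SD, n = 3) does not check the genotype. The log2 fold change of *Ptpn6*, *Ptpn6*+/mev against wild-type, was -0.19, and ranged from -0.34 to -0.06 with 1 library left out. Its adjusted p was 0.715 in the quasi-likelihood test of edgeR, the main test used throughout.

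The kidney is the main endocrine site of vitamin D activation. CYP2R1, acting mostly in the liver, makes 25-hydroxyvitamin D, which proximal tubule cells take up with its binding protein. CYP27B1 converts it to the active hormone calcitriol, and CYP24A1 inactivates both forms. Calcitriol, acting through VDR, is known to induce *Cyp24a1* and to repress *Cyp27b1*, parathyroid hormone (PTH) induces *Cyp27b1*, and FGF23, acting on FGFR1 with Klotho, represses *Cyp27b1*, induces *Cyp24a1* and removes phosphate transporters from the brush border.

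Total counts ranged from 10271590 to 12361745 per library, and 13036 genes were tested. Wild-type replicate 2 stood apart from the other libraries: on the first principal component it lay at 53.9, and the others lay between -17.5 and -3.76. The summed level of 6 endothelial markers was 53.2 FPKM in that library and 127 to 137 in the others, and that of 6 fibroblast markers was 52.6 against 148 to 254. Of 15 proximal tubule and 12 distal nephron markers of the kidney, none was at 0 in any library. Summed proximal tubule markers reached 1665 to 1845 FPKM in *Ptpn6*+/mev and 2160 to 2415 in wild-type libraries, without overlap. Values are in FPKM (fragments scaled to transcript length and to the depth of the library), which allows levels of different genes to be set side by side, and fold changes come from counts. Counts were also scaled by a TMM factor per library, and the FPKM values were not. This factor was higher in every *Ptpn6*+/mev library than in any wild-type library. FPKM levels, sums and ranges below carry this difference between the groups.

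Across the 10 genes the levels spanned more than the differences between the groups. *Slc34a1* and *Pth1r* held the first 2 ranks and *Cyp24a1* rank 3 in all 6 libraries, while *Slc34a3* and *Cyp2r1* were always at ranks 9 and 10. *Slc34a1* exceeded *Pth1r* in each *Ptpn6*+/mev library, with *Pth1r* at 0.787 to 0.869 of its level. In wild-type libraries *Pth1r* stood at 0.829 to 1.39 of *Slc34a1*, so that neither was higher throughout. *Vdr* held rank 4 in every wild-type library and rank 5 or 6 in *Ptpn6*+/mev libraries, and *Cyp27b1* held rank 8 in the wild-type libraries and ranks 4, 8 and 7 in *Ptpn6*+/mev replicates 1 to 3. *Kl* and *Slc20a2* were also within each other's spread in wild-type mice. Mean levels over the libraries exceeded those of 97.9% of the genes with a count for *Slc34a1*, 94.8% for *Cyp24a1*, 71.1% for *Cyp27b1* and 27.8% for *Cyp2r1*.

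**Figure D1:**
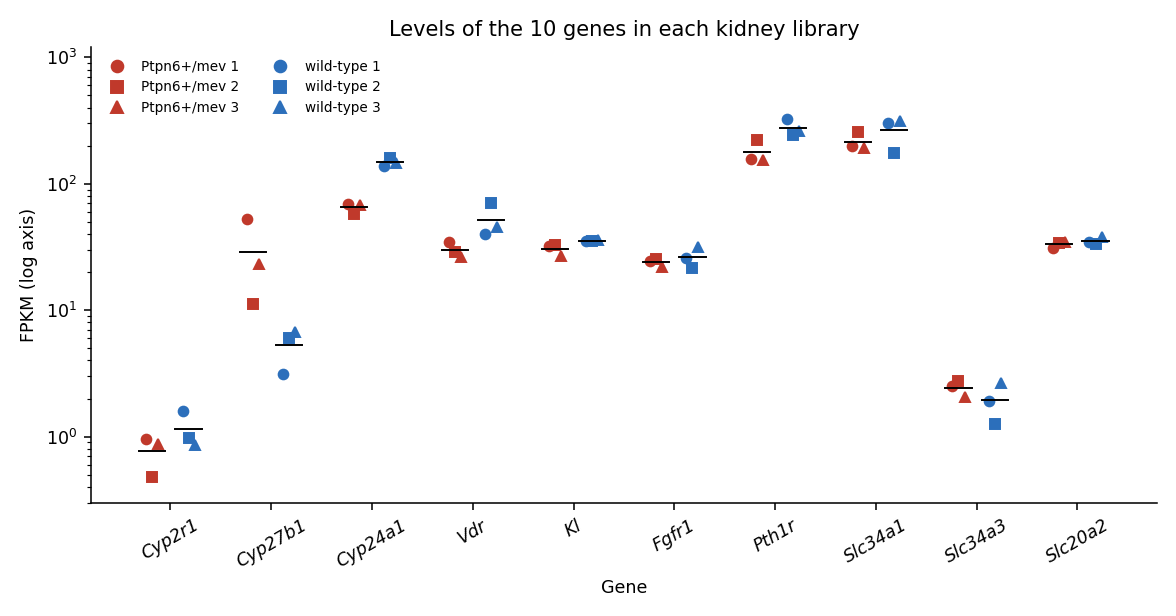
FPKM on a log axis of each of the 10 genes in the 3 *Ptpn6*+/mev (red) and 3 wild-type (blue) libraries, with 1 symbol shape per replicate number and a line at each group mean. *Cyp27b1* is spread from 11.2 to 52.2 in *Ptpn6*+/mev libraries and from 3.15 to 6.71 in wild-type libraries, and *Cyp24a1* shows the opposite order of the groups.

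At an adjusted p under 0.05 (edgeR), 1 of the 10 genes was called, *Cyp24a1*, which was lower. Of all tested genes 0.138% were called, and 0.069% were called lower. For 5 of the 10 genes the ranges of both groups did not overlap, with *Cyp27b1* higher and *Cyp24a1*, *Vdr*, *Kl* and *Pth1r* lower in *Ptpn6*+/mev mice. Such separation was found in 20.4% of all tested genes, in 14.0% with the *Ptpn6*+/mev values higher and in 6.38% with them lower. These ranges are of FPKM without the TMM factor. From counts with this factor, 5.53% of tested genes were higher and 6.71% lower at an unadjusted p under 0.05 (edgeR). The part of the missing factor in the split of the ranges was not tested. The exact test of edgeR and DESeq2 each called 4 of the 10, *Cyp24a1*, *Cyp27b1*, *Vdr* and *Pth1r*, against 2.99% and 3.04% of all genes. With wild-type replicate 2 left out, edgeR called 2, *Cyp24a1* and *Pth1r*, both lower, against 1.8% of all genes called and 1.09% called lower. The list's median log2 fold change was -0.32, against -0.002 over all tested genes. Because the choice of genes used this contrast, nothing is read from these counts.

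*Cyp24a1* (ENSMUSG00000038567), the 24-hydroxylase that starts the breakdown of calcitriol, lies on the minus strand of chromosome 2 from 170482708 to 170497145 (GRCm38). Its level was 69.5, 58.1 and 67.5 FPKM in *Ptpn6*+/mev replicates 1 to 3 and 139, 160 and 145 FPKM in wild-type replicates 1 to 3. The ranges were far apart, and every wild-type kidney held more than any *Ptpn6*+/mev kidney. The means were 65.1 ± 6.11 and 148 ± 10.8 FPKM (SD, n = 3 in each group), a wild-type level 2.28 times that of *Ptpn6*+/mev mice. From counts, the log2 fold change was -1.26, with a 95% interval of -1.52 to -0.997 (adjusted p = 0.0107, edgeR). It was -1.18 in limma on log2(FPKM + 1). Of its 3560 exonic bases 83 are shared with *Pfdn4* on the opposite strand, which stood at 18.1 to 24.6 FPKM, and reads from this stretch could be counted for either gene.

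The call on *Cyp24a1* was lost without any one of the 3 *Ptpn6*+/mev libraries and with a block on replicate number (adjusted p = 0.0892, edgeR). These fits called few genes of any kind. They called 4, 11 and 1 genes without *Ptpn6*+/mev replicates 1, 2 and 3, and 1 with the block, against 18 in the main fit. In edgeR the adjusted p was 0.0825, 0.0502 and 0.146 without *Ptpn6*+/mev replicates 1, 2 and 3, while the log2 fold change stayed between -1.32 and -1.17 over the 6 fits that each left out 1 library.

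*Cyp27b1* (ENSMUSG00000006724), the 1α-hydroxylase that makes calcitriol, lies on the plus strand of chromosome 10 from 127048250 to 127053006 (GRCm38) and shares no exonic base with another annotated gene. Its level was 52.2, 11.2 and 23.1 FPKM in *Ptpn6*+/mev replicates 1 to 3 and 3.15, 6.06 and 6.71 FPKM in wild-type replicates 1 to 3. The lowest *Ptpn6*+/mev value lay above the highest wild-type value, but the *Ptpn6*+/mev kidneys also differed widely from each other. The means were 28.8 ± 21.1 and 5.31 ± 1.90 FPKM (SD, n = 3), a 5.44-fold difference. The coefficient of variation among *Ptpn6*+/mev mice was 73.2%, and the spread of log2 CPM was larger than in 99.6% of tested genes. In wild-type mice the spread was larger than in 90.5% of tested genes, so *Cyp27b1* was variable within both groups.

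For *Cyp27b1* the log2 fold change was 2.36, with a 95% interval of 1.11 to 3.61 (adjusted p = 0.133, edgeR). Without *Ptpn6*+/mev replicate 1, the highest library, it was 1.61 (adjusted p = 0.332, edgeR). With the exact test of edgeR the adjusted p of *Cyp27b1* was 0.00141, and with DESeq2 it was 0.0221.

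VDR with its partner RXR is known to bind a direct repeat with a spacer of 3 bases, and this motif was looked for around the starts of the genes. RefSeq windows of GRCm38.p6 (250 bases before to 50 after the start) were found for 7 of the 10 genes, and *Cyp24a1*, *Fgfr1* and *Slc20a2* had none. The motif was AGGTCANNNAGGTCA on either strand with at most 3 mismatches, and 22.4% of the 32851 windows of this length held it. *Cyp27b1* held 1 match and *Slc34a1* 3, and the windows of *Cyp2r1*, *Vdr*, *Kl*, *Pth1r* and *Slc34a3* held none. The *Cyp27b1* and *Slc34a1* sequences are shown because they carry the matches; capitals mark matched bases, and the last 2 matches of *Slc34a1* overlap each other. They lie at chr10:127047996-127048245 (plus strand) and chr13:55399398-55399647 (plus strand) of GRCm38.p6, and the RefSeq start of *Slc34a1* lies inside the gene as GENCODE bounds it.
Cyp27b1: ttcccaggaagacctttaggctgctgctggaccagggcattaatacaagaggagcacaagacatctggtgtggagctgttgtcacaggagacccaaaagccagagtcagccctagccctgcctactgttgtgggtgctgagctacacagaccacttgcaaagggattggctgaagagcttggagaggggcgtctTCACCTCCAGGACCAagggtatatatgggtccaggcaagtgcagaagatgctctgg
Slc34a1: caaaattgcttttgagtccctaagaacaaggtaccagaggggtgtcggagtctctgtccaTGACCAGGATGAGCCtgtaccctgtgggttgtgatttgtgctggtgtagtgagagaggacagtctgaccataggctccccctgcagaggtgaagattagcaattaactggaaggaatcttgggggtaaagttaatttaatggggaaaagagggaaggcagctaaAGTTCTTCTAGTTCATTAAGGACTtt

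Each match had 3 mismatches, and a match at this stringency describes letters in the window and not a bound site. The *Cyp27b1* match spans positions -56 to -42 from the start on the minus strand, TCACCTCCAGGACCA as read on the plus strand.

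Set against each other within a library, *Cyp27b1* stood at 0.751, 0.192 and 0.343 of the *Cyp24a1* level in *Ptpn6*+/mev replicates 1 to 3. In wild-type replicates 1 to 3 it stood at 0.0227, 0.0379 and 0.0463. *Cyp24a1* mRNA thus exceeded *Cyp27b1* mRNA in all 6 kidneys, by 21.6 to 44.1 times in wild-type mice and by 1.33 to 5.21 times in *Ptpn6*+/mev mice. On a log2 scale the mean ratios of the groups differed by 3.43. Since both genes entered the list for their opposite differences, the separation of this ratio is a description with no test.

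**Figure D2:**
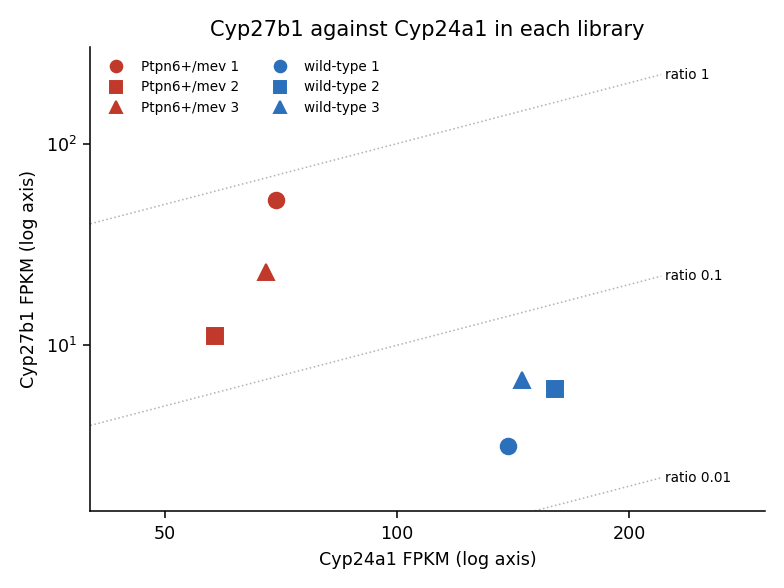
*Cyp27b1* FPKM against *Cyp24a1* FPKM in each library, both on log axes, with dotted lines of equal ratio. The *Ptpn6*+/mev libraries (red) lie between ratios of 0.192 and 0.751 and the wild-type libraries (blue) between 0.0227 and 0.0463.

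*Cyp2r1* (ENSMUSG00000030670, chromosome 7 from 114549682 to 114562972), the main 25-hydroxylase, was at the edge of detection, with 7 to 14 counts in *Ptpn6*+/mev and 16 to 22 counts in wild-type libraries. Its level was 0.950, 0.480 and 0.870 FPKM in *Ptpn6*+/mev replicates 1 to 3 and 1.59, 0.980 and 0.860 FPKM in wild-type replicates 1 to 3. The ranges overlapped. Its log2 fold change was -0.76, and its 95% interval from -1.63 to 0.11 (edgeR, adjusted p = 0.469) covers both a large decrease and no difference.

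*Vdr* (ENSMUSG00000022479, minus strand of chromosome 15 from 97854425 to 97910630) encodes the nuclear receptor through which calcitriol acts. Its level was 34.9, 29.0 and 26.4 FPKM in *Ptpn6*+/mev replicates 1 to 3 and 39.95, 69.9 and 45.5 FPKM in wild-type replicates 1 to 3. The groups did not overlap, but wild-type replicate 2 lay well above the other wild-type kidneys. *Vdr* had a log2 fold change of -0.85, with a 95% interval of -1.42 to -0.27 (adjusted p = 0.222, edgeR). Without wild-type replicate 2 it was -0.49 (adjusted p = 0.0875, edgeR). The exact test of edgeR gave an adjusted p of 0.0494 and DESeq2 gave 0.0303. Wild-type replicate 2 also held more *Aqp2*, the water channel gene of collecting duct cells (431 FPKM against 143 and 135 in wild-type replicates 1 and 3). It held more *Calb1* (45.6 against 18.5 and 14.5) and more *Slc12a1* (45.4 against 17.3 and 15.8). *Trpv5*, also on the list of distal nephron markers, was not raised there (8.50 against 8.55 and 8.04). These genes were singled out after their values were seen. The part of these markers, and of the low endothelial and fibroblast marker levels of wild-type replicate 2, in its *Vdr* value was not tested.

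*Kl* (ENSMUSG00000058488, plus strand of chromosome 5 from 150952607 to 150993817) encodes Klotho, the co-receptor that lets FGF receptors bind FGF23 and that is made mainly in distal convoluted tubules. Its level was 32.1, 32.5 and 26.8 FPKM in *Ptpn6*+/mev replicates 1 to 3 and 35.1, 35.5 and 36.0 FPKM in wild-type replicates 1 to 3. In FPKM the wild-type values were almost the same, with a coefficient of variation of 1.20%. All were above the *Ptpn6*+/mev values, which were more spread (10.4%). On log2 CPM the SD was 0.061 in wild-type and 0.160 in *Ptpn6*+/mev mice, larger than in 9.76% and 57.0% of tested genes. The difference was small, with a log2 fold change of -0.29 and a 95% interval of -0.53 to -0.06 (adjusted p = 0.301, edgeR). *Slc12a3*, a defining marker of the distal convoluted tubule singled out after its values were seen, stood at 103 ± 17.0 FPKM in *Ptpn6*+/mev and 132 ± 8.95 FPKM in wild-type mice (SD, n = 3). The 12 distal nephron markers summed to 2119 to 3023 FPKM and 2560 to 2982 FPKM in the same order, overlapping, but *Umod*, a gene of the thick ascending limb, made up most of this sum (1628 to 2556 FPKM in *Ptpn6*+/mev libraries). Of the 11 distal nephron markers tested, the ranges of 3 lay lower without overlap (*Slc12a3*, *Trpv5* and *Scnn1b*) and those of 2 higher (*Atp6v1b1* and *Slc4a1*), where 20.4% of all tested genes did not overlap, and none had an adjusted p under 0.05 in edgeR. The median log2 fold change of these markers was -0.29, and 0.17 without wild-type replicate 2. The part of these markers in the *Kl* values was not tested.

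*Fgfr1* (ENSMUSG00000031565, plus strand of chromosome 8 from 25513654 to 25575718) encodes the main receptor partner of Klotho. Its level was 24.5, 25.2 and 21.9 FPKM in *Ptpn6*+/mev replicates 1 to 3 and 26.0, 21.6 and 31.7 FPKM in wild-type replicates 1 to 3, with overlapping ranges. *Fgfr1* had a log2 fold change of -0.11, with a 95% interval of -0.38 to 0.15 (adjusted p = 0.768, edgeR). It was -0.22 without wild-type replicate 2 and -0.02 without wild-type replicate 3. *Fgfr1* made up 44.0% to 55.0% of the summed FPKM of *Fgfr1* to *Fgfr4* in *Ptpn6*+/mev libraries and 45.4% to 51.7% in wild-type libraries. *Kl* exceeded *Fgfr1* in every library, by 1.14 to 1.64 times.

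*Pth1r* (ENSMUSG00000032492, minus strand of chromosome 9 from 110722085 to 110747145) encodes the receptor through which PTH raises *Cyp27b1* and lowers phosphate uptake in the proximal tubule. Its level was 156, 223 and 153 FPKM in *Ptpn6*+/mev replicates 1 to 3 and 324, 244 and 259 FPKM in wild-type replicates 1 to 3. The groups did not overlap, although *Ptpn6*+/mev replicate 2 came close to the lowest wild-type kidney. The means were 177 ± 39.3 and 276 ± 42.4 FPKM (SD, n = 3), a wild-type level 1.55 times that of *Ptpn6*+/mev mice, and the log2 fold change was -0.71, with a 95% interval of -1.08 to -0.34 (adjusted p = 0.131, edgeR).

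Without wild-type replicate 2, *Pth1r* had a log2 fold change of -0.74 (adjusted p = 0.0497, edgeR). Its adjusted p was 0.00837 by the exact test of edgeR and 0.00418 by DESeq2. *Myl3*, which shares 95 exonic bases with *Pth1r* on the opposite strand, reached at most 0.520 FPKM.

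*Slc34a1* (ENSMUSG00000021490, plus strand of chromosome 13 from 55398187 to 55415592) encodes NaPi-IIa, the main sodium-phosphate cotransporter of the proximal tubule brush border. Its level was 198, 256 and 193 FPKM in *Ptpn6*+/mev replicates 1 to 3 and 305, 176 and 313 FPKM in wild-type replicates 1 to 3. Wild-type replicate 2 was the lowest of all 6 kidneys, so the ranges overlapped. *Slc34a1* had a log2 fold change of -0.34, with a 95% interval of -0.80 to 0.12 (adjusted p = 0.567, edgeR). Without wild-type replicate 2 it was -0.55 (adjusted p = 0.0508, edgeR). Its counts were fractional in some libraries, and *Pfn3* on the opposite strand shares 545 of its 4676 exonic bases and reached at most 6.32 FPKM.

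*Slc34a3* (ENSMUSG00000006469, minus strand of chromosome 2 from 25228898 to 25234364) encodes NaPi-IIc, another brush-border cotransporter. Its level was 2.53, 2.73 and 2.04 FPKM in *Ptpn6*+/mev replicates 1 to 3 and 1.90, 1.25 and 2.66 FPKM in wild-type replicates 1 to 3, with overlapping ranges and 30 to 72 counts. Its log2 fold change was 0.26, with a 95% interval of -0.40 to 0.93 (adjusted p = 0.789, edgeR), and it was 0.05 without wild-type replicate 2 and 0.54 without wild-type replicate 3.

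*Slc20a2* (ENSMUSG00000037656, plus strand of chromosome 8 from 22476788 to 22569612) encodes PiT-2, a type III phosphate transporter found in many cell types. Within *Ptpn6*+/mev mice its coefficient of variation of 5.05% was the lowest of the 10 genes, at 31.3, 33.8 and 34.5 FPKM in replicates 1 to 3, and it stood at 34.3, 33.5 and 38.1 FPKM in wild-type replicates 1 to 3. *Smim19*, which shares 95 of its 6216 exonic bases, stood at 5.61 to 11.0 FPKM. The ranges of *Slc20a2* overlapped, and the log2 fold change was -0.16 with a 95% interval of -0.35 to 0.04 (adjusted p = 0.511, edgeR). Of the summed FPKM of *Slc34a1*, *Slc34a2*, *Slc34a3*, *Slc20a1* and *Slc20a2*, *Slc34a1* made up 75.1% ± 1.91 in *Ptpn6*+/mev and 75.5% ± 6.50 in wild-type mice (SD, n = 3). The *Slc34a1* share thus differed by less than its spread, while *Slc34a3* made up 0.773% to 0.961% in *Ptpn6*+/mev and 0.485% to 0.665% in wild-type libraries, without overlap. The levels of *Slc34a3* itself overlapped, and its share also depends on a sum that is mostly *Slc34a1*.

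**Figure D3:**
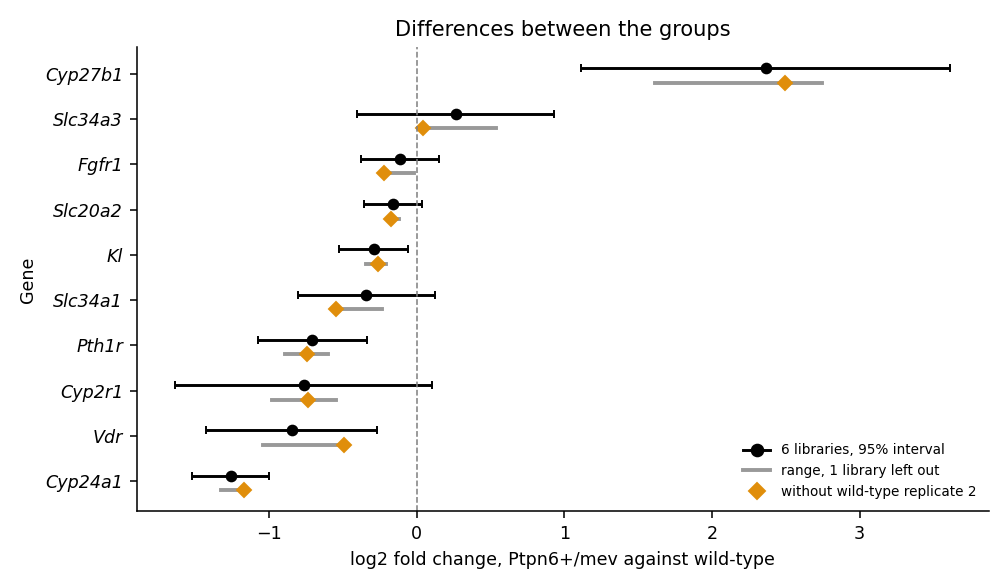
Log2 fold change of *Ptpn6*+/mev against wild-type mice for each of the 10 genes with its 95% interval from edgeR (black), the range over 6 fits with 1 library left out (grey), and the value without wild-type replicate 2 (orange). *Cyp27b1* lies at 2.36 with the widest interval and *Cyp24a1* at -1.26, and *Vdr* moves from -0.85 to -0.49 without wild-type replicate 2.

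The summed markers of the proximal tubule, the cell type that uses most of these genes, did not overlap between the groups. Of the 15 markers, the ranges of 6 lay lower without overlap, against 6.38% of tested genes. Others, such as *Slc5a2* (log2 fold change -0.04, singled out after its values were seen), hardly differed. Of 15 markers 14 had a negative log2 fold change, with a median of -0.46, and 1, the organic anion transporter gene *Slc22a8* (named after its values were seen), was lower at an adjusted p of 0.0443 (edgeR), against 0.069% of all tested genes called lower. At an unadjusted p under 0.05 there were 9 lower markers, against 6.71% of tested genes. The exact test and DESeq2 each called 6 of the 15, and edgeR without wild-type replicate 2 called 7, all lower, where 1.78%, 1.92% and 1.09% of tested genes were called lower. With 1 library left out the adjusted p of *Slc22a8* (edgeR) reached 0.343, and of these 6 fits it was below 0.05 only in the fit without wild-type replicate 2. With a block on replicate number it was 0.168 (edgeR), and none of the 15 markers was called, in a fit that called 1 of all tested genes. Markers of tubular injury summed to 6213 to 7617 FPKM in *Ptpn6*+/mev and 5678 to 6131 FPKM in wild-type libraries. Of these 10 markers the ranges of 5 lay higher without overlap, against 14.0% of tested genes. Their median log2 fold change was 0.28, and 0.34 without wild-type replicate 2. At an adjusted p under 0.05 edgeR called none of them. The exact test called 1, DESeq2 2 and edgeR without wild-type replicate 2 called 2, against 2.99%, 3.04% and 1.8% of tested genes. Macrophages can also express *Cyp27b1*, and 10 macrophage markers summed to 181, 286 and 286 FPKM in *Ptpn6*+/mev replicates 1 to 3. In wild-type replicates 1 to 3 the sums were 258, 117 and 214 FPKM. The median log2 fold change of the macrophage markers was 0.20, and -0.05 without wild-type replicate 2. That of the 6 endothelial markers was 0.20, and -0.19 without this library. For the 6 fibroblast markers it was -0.10, and -0.57 without this library. In that fit edgeR called 2 of the fibroblast markers lower, against 1.09% of tested genes. In whole-kidney RNA, fewer cells of a type and less RNA per cell cannot be told apart, and the part of these markers in the values above was not tested.

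**Figure D4:**
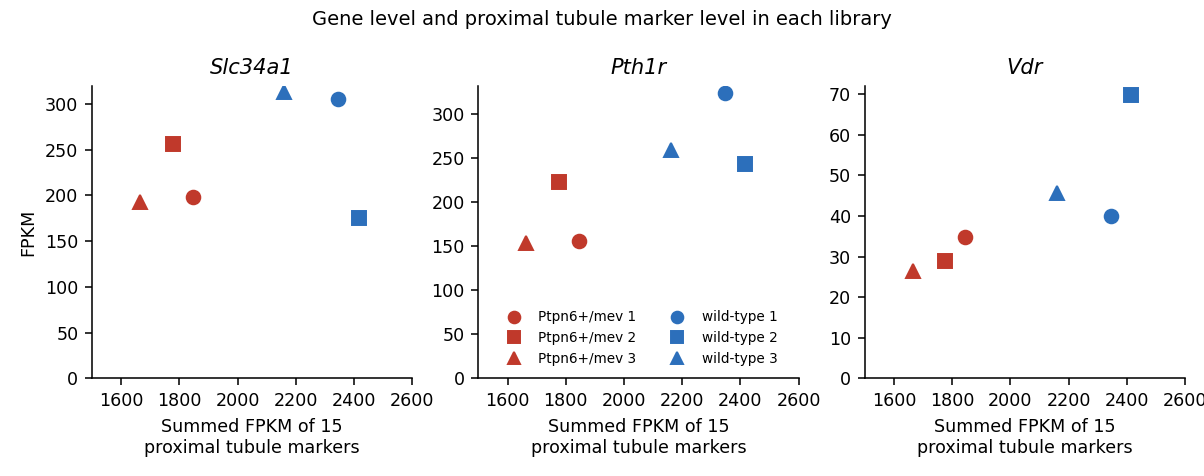
FPKM of *Slc34a1*, *Pth1r* and *Vdr* against the summed FPKM of 15 proximal tubule markers in each library, with *Ptpn6*+/mev libraries in red and wild-type libraries in blue. Marker sums are 1665 to 1845 in *Ptpn6*+/mev and 2160 to 2415 in wild-type libraries, and wild-type replicate 2 has the highest *Vdr* (69.9) and the lowest *Slc34a1* (176).

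The wider pathway was read from 68 further genes in 6 lists, of which 59 were tested. In edgeR none of them passed at an adjusted p under 0.05, where 0.138% of all tested genes did. At an unadjusted p under 0.05 there were 2 higher and 16 lower genes, against 5.53% and 6.71% of all tested genes. The exact test and DESeq2 each called 7 of the 59, all lower, against 1.78% and 1.92% of tested genes called lower. These 7 were *Gc*, *Cubn*, *Dab2*, *Cldn2*, *Slc34a2*, *Slc17a3* and *Alpl*, of which *Cubn* falls outside the rule for named genes. Without wild-type replicate 2 edgeR called 5 of the 59, *Lrp2*, *Cubn*, *Dab2*, *Slc17a3* and *Alpl*, all lower, against 1.09% of tested genes called lower in that fit.

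Of 6 tested genes for the synthesis, transport and uptake of vitamin D, 5 were lower at an unadjusted p under 0.05. Of all tested genes 6.71% were lower at this threshold. None of the 6 had an adjusted p under 0.05 (edgeR), and the median log2 fold change was -0.54. *Gc*, the vitamin D binding protein, stood at 19.0 ± 3.21 FPKM in *Ptpn6*+/mev and 38.5 ± 11.2 FPKM in wild-type mice (SD, n = 3). Its log2 fold change from counts was -1.07 (adjusted p = 0.115, edgeR). *Dab2*, an adaptor for endocytosis, had a log2 fold change of -0.64. *Lrp2*, which encodes megalin, the receptor that takes up the binding protein, had -0.44, and *Cubn*, its partner cubilin, had -0.84. *Lrp2* and *Cubn* were also in the list of proximal tubule markers.

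Of 9 tested partners and coregulators of VDR, none had an unadjusted p under 0.05, against 12.2% of all tested genes. With so few genes, such a count does not set the list apart. The median log2 fold change was -0.02. *Rxra*, the gene of the receptor that pairs with VDR, had a log2 fold change of -0.15 with a 95% interval of -0.34 to 0.04. *Ncor1*, a corepressor, had -0.02, and ranged from -0.13 to 0.08 with 1 library left out. *Pdia3*, a protein disulfide isomerase also described as a membrane binder of calcitriol, had -0.28, and 0.09 without wild-type replicate 2, the library in which it was highest (111 FPKM).

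Of 13 genes for renal calcium transport and known VDR targets, 6 were lower at an unadjusted p under 0.05 and none was higher. Among all tested genes 6.71% were lower and 5.53% higher at this threshold. The median log2 fold change of the list was -0.42. It was -0.22 without wild-type replicate 2. *Cldn2*, a paracellular channel of the proximal tubule, had a log2 fold change of -0.50 (adjusted p = 0.122, edgeR). *S100g*, which encodes calbindin-D9k, stood at 906 ± 226 FPKM in *Ptpn6*+/mev and 966 ± 222 FPKM in wild-type mice (SD, n = 3), a difference within the spread. Its log2 fold change from counts turned from -0.17 to 0.05 without wild-type replicate 2. *Spp1*, which encodes osteopontin and is abundant in injured tubules, had -0.38, and -0.22 without wild-type replicate 2.

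In the FGF23-Klotho list 13 of 17 genes were tested, with a median of 0.03 (-0.02 without wild-type replicate 2). At an unadjusted p under 0.05, 1 gene was higher, against 5.53% of all tested genes. This was the sheddase gene *Adam17* (log2 fold change 0.25, singled out after its values were seen). *Adam10*, another sheddase that can release Klotho, had 0.03. *Egr1* and *Dusp6*, genes induced by FGF receptor signaling, had 0.08 and -0.14, and *Egr1* had -0.02 without wild-type replicate 2. The hormone genes *Fgf23* and *Pth*, which are made mainly in bone and in the parathyroid, had 0 counts in every library, which allows up to 3 counts per library.

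Among 10 tested genes of the PTH axis the median was -0.09 (-0.05 without wild-type replicate 2). At an unadjusted p under 0.05, 1 was lower, against 6.71% of all tested genes. This was *Pdzk1*, a scaffold that holds phosphate transporters at the brush border, with a log2 fold change of -0.36, which ranged from -0.46 to -0.22 with 1 library left out. *Gnas*, the G protein subunit downstream of PTH1R, had -0.11, and -0.03 without wild-type replicate 2. *Ezr*, which links the brush border to actin, had -0.05.

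Among 8 other genes of phosphate transport and turnover, 4 were lower and 1 higher at an unadjusted p under 0.05. Of all tested genes 6.71% were lower and 5.53% higher at this threshold. The list's median was -0.30, and -0.19 without wild-type replicate 2. *Slc17a3*, a sodium-phosphate family transporter of organic anions, stood at 104 ± 10.7 FPKM in *Ptpn6*+/mev and 153 ± 9.94 FPKM in wild-type mice (SD, n = 3). Its log2 fold change from counts was -0.63 (adjusted p = 0.0685, edgeR). *Alpl*, tissue-nonspecific alkaline phosphatase, had -0.91 (adjusted p = 0.0992). *Slc34a2*, which encodes NaPi-IIb, stood at 8.20 ± 2.65 and 15.6 ± 3.85 FPKM in the same order, and the exact test of edgeR and DESeq2 called it lower. *Slc17a1* had -0.38, and 0.03 without wild-type replicate 2, the library in which it was highest.

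**Figure D5:**
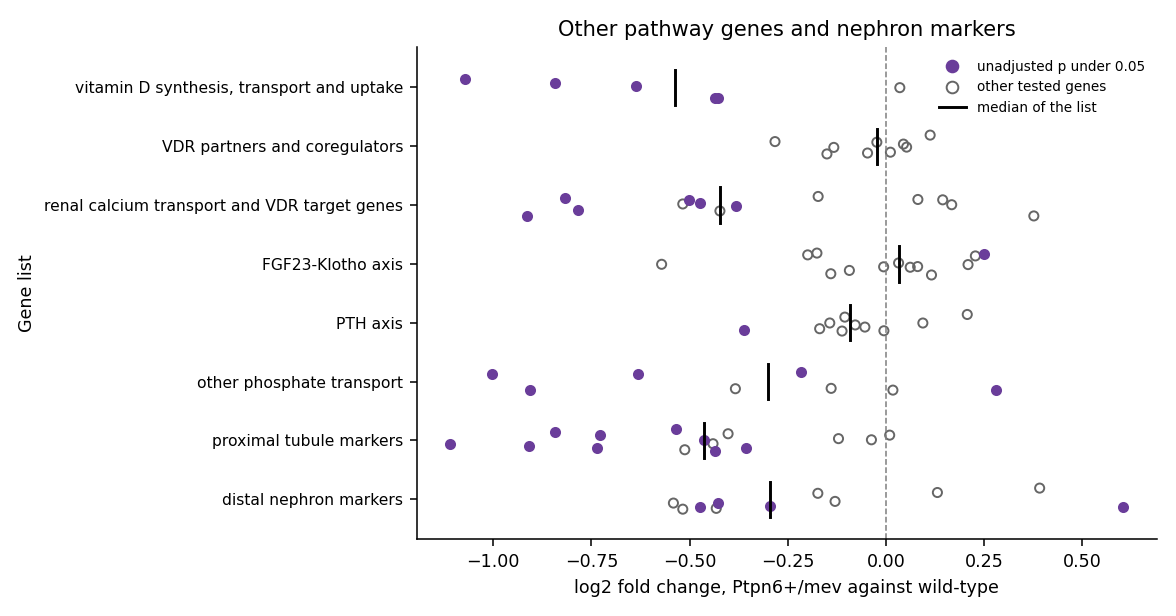
Log2 fold change of *Ptpn6*+/mev against wild-type mice for each tested gene of the 6 pathway lists and of the proximal tubule and distal nephron markers, with filled points at an unadjusted p under 0.05 and a bar at each list's median. The medians are -0.54 for vitamin D synthesis, transport and uptake, -0.02 for VDR partners, 0.03 for the FGF23-Klotho list and -0.46 for proximal tubule markers.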

How the data were processed

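The authors cleaned the reads of adaptors and poor sequence, mapped them with TopHat to GRCm38.p5 and obtained FPKM from Cufflinks. The submitters' processing notes also list Bowtie2 and RSEM. The authors deposited 1 table of estimated counts and FPKM values per library, with no values of their own comparisons. Which tool made the counts is not given in the sources used here. The paper names the TruSeq RNA Sample Preparation Kit and its catalogue number, and does not itself state whether the libraries kept strand. RNA extraction is given as an RNeasy kit in the labels and as TRIzol in the paper's methods.

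Estimated counts were rounded (1744 genes had a fractional count), normalized by TMM, filtered with filterByExpr and compared with edgeR 4.0.16 in R 4.3.3 (quasi-likelihood test, Benjamini-Hochberg over 13036 genes). The columns labelled HE were read as the heterozygous *Ptpn6*+/mev libraries. Log2 CPM used a prior count of 2. Intervals are 95% from the same fit. Libraries of a group differed by more than counting noise (chi-square per degree of freedom 6.27 to 43.3), and each was counted as 1 mouse, as the labels number them. Positions come from GENCODE M21 (GRCm38) and promoter windows from RefSeq. The quasi-likelihood test, the exact test and DESeq2 were tested on 1 simulated data set with 200 changed genes. Each gene was drawn on its own, so no simulated library stood apart as wild-type replicate 2 did. False calls made up 7.87%, 16.8% and 17.3% of the calls, each above the nominal share. As only 1 set was drawn, a small excess cannot be told from none. Of 2-fold changes 67.4%, 83.1% and 76.4% were recovered.

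Members and lists were chosen with earlier results of these data known. Named pathway genes were the 3 most abundant of each list, any at an adjusted p under 0.05, and any at an unadjusted p under 0.05 with an absolute log2 fold change of at least 1; others are named as chosen later. Alternatives were DESeq2's size factors, upper quartile normalization, DESeq2 1.42.0, edgeR's exact test, limma 3.58.1 on log2 FPKM (pseudocounts 1 and 0.1), all genes unfiltered, a minimum of 10 counts per library, a block on replicate number, and each library left out.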

Additional observations from a re-analysis of the deposited data

How the results depend on the processing

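All 149 recomputed fold changes of the 10 genes kept their direction, over 15 alternatives each (*Cyp2r1* fell below the minimum of 10 counts in every library and has 14). The number of called genes among all tested was 390 in the exact test of edgeR, 388 in DESeq2, 52 without a filter and 1 with the replicate block, against 18, and ranged from 1 to 237 with 1 library left out. Of the 10 genes, 4 were called in the exact test and 4 in DESeq2 (*Cyp24a1*, *Cyp27b1*, *Vdr* and *Pth1r* in each), 0 with the replicate block, and 0 to 2 with 1 library left out. It was 0 without any one of the *Ptpn6*+/mev libraries and 2 without wild-type replicate 2 (*Cyp24a1* and *Pth1r*). Of the other pathway genes, 7 were called in the exact test and 7 in DESeq2, 1 (*Slc17a3*) without a filter, and 0 to 5 with 1 library left out, with 5 without wild-type replicate 2. The log2 difference in the *Cyp27b1* to *Cyp24a1* ratio ranged from 2.91 to 3.89 with 1 library left out and was 3.43 with CPM.

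Same-numbered libraries did not deviate together (correlations of -0.14, -0.18 and -0.13 for numbers 1 to 3), and no library correlated best with its own number, so the numbers were not taken as pairs. With the replicate block *Cyp24a1* had a log2 fold change of -1.26 (adjusted p = 0.0892, edgeR), and 0 of the 15 proximal tubule markers were called (*Slc22a8*, adjusted p = 0.168, edgeR). Depth limits *Cyp2r1* and *Slc34a3*, with at most 22 and 72 counts per library.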
